A study of Macaca mulatta with 17 samples.

Results

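The collagen alpha chain genes were followed through the fetal uterus of the rhesus macaque at 2 gestational ages, with and without maternal exposure to bisphenol A (BPA). A gene was counted as a member when the array's annotation gave it a collagen alpha chain symbol (COL, a number, A, a number) or named that human gene as the one it resembles. This gave 42 of the 20217 probes on the array and 38 genes, out of 16493 gene names matched in all. Each gene was read from its brightest probe. COL4A2, COL6A5, COL6A6, COL20A1, COL26A1 and COL28A1, the other human alpha chain genes of the 44 looked for, had no probe by this rule and were not analysed here.

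Total RNA from 17 individual fetal uteri was hybridized to single-color Agilent rhesus macaque arrays, 1 array per fetus. All fetuses were female rhesus macaques, and each dam ate a daily fruit treat. The GD100 BPA group (n = 5) came from dams given deuterated BPA at 400 µg/kg/day from gestational day 50 until caesarean delivery on day 100, and the GD100 control group (n = 5) from dams given the ethanol vehicle over the same days. The GD165 BPA group (n = 3) was exposed to the same dose from day 100 until vaginal delivery at day 165 to 168, with GD165 controls (n = 4) given vehicle. Age, mode of delivery and dosing window changed together, so they cannot be told apart in any comparison of GD165 with GD100. Stillborn fetuses were left out of the array analysis by the study's methods. RNA came from 1 side of a uterus cut from fundus to cervix and so mixed all its cell types. Fewer cells of a type and less RNA per cell cannot be told apart in such samples.

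Collagens are proteins of 3 alpha chains wound into a triple helix, built from repeats with glycine recurring at a fixed interval. Fibrillar collagens form the cables of the uterine stroma and myometrium, fibril-associated collagens decorate those cables, type VI collagen makes beaded filaments around cells, and type IV collagen makes the sheet-like network under epithelium and around muscle and vessels. The alpha 3 and alpha 4 chains of type IV assemble with alpha 5 into a specialized network best known from the kidney glomerulus, while alpha 1 and alpha 2 form the network found in nearly all tissues.

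None of the 38 chosen probes, each 60 bases long, held 4 glycine codons in a row at the spacing of the helix repeat. Only 0.109% of all probes did, so finding none among 38 says little about them. The polyadenylation signal AATAAA was present in 7 of 38 (18.4%), against 12.8% of all probes. No pair of chosen probes from different genes shared a run longer than 11 bases over the 703 pairs compared. The first 30 bases of the probes behind the main results, as given in the array files and written in lower case throughout, show how unlike they were, including those of COL4A3 and COL4A4, which lie next to each other in RefSeq's macaque gene table, and of the 2 COL25A1 probes that disagreed.
COL4A3: ctatgtatcaaatgtaacttactgctacta
COL4A4: tctgggaagaggtaagggtgacaaatgaaa
COL5A1: tgttcgtgaatagctcgcaggggttggggg
COL18A1: ttttttaaaagttaaaatggaagcctgctg
COL25A1, brighter probe: tatttatagttgaaaactgaattgcagatt
COL25A1, dimmer probe: attatccccagatattcaagctacagtttt

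All values below are log2 levels after scaling of the arrays to a common 75th percentile of 12.62. They rank fetuses for 1 probe and do not compare one gene with another. The scanning software marks a spot as well above background when its signal exceeds the noise around it, and 83.8 to 89% of the spots passed on each array. Of the collagen genes, 35 of 38 passed that call on all 17 arrays. The exceptions were COL10A1, which passed it on no array, COL4A3 and COL8A1. No member was saturated. Markers of the tissue were present: 14 of 14 smooth muscle genes, 10 of 10 stromal fibroblast genes and 7 of 8 Müllerian tract genes passed the same call on all 17 arrays. PGR, the progesterone receptor, was the exception and passed it on none.

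The first question was how collagen expression differed between the uteri of control fetuses at GD165 and GD100. By limma's moderated test with Benjamini-Hochberg adjustment over all probes and a threshold of 0.01, 8 of 38 collagen genes (21.1%) changed, against 11.5% of all probes. COL4A3, COL4A4, COL18A1 and COL25A1 were higher at GD165, where 6.32% of all probes were called higher. COL5A1, COL16A1, COL19A1 and COL22A1 were lower, where 5.2% of all probes were called lower. The median log2 fold change was -0.18 over the collagen genes and 0 over all probes, and 25 of the 38 collagen estimates were below 0. Values at the 2 ages were fully separate for 11 collagen genes, against 19.4% of all probes. At an adjusted p under 0.05, 15 of 38 collagen genes passed, as did 4279 of all 20217 probes.

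The same ages compared among BPA-exposed fetuses gave 9 of 38 collagen genes past the threshold, or 23.7%, against 9.68% of all probes. COL4A3, COL4A4, COL18A1 and COL25A1 were again higher, with 4.82% of all probes called higher. The lower genes were COL5A1, COL22A1, COL24A1, COL27A1 and COL23A1, with 4.86% of all probes called lower. The groups did not overlap for 12 collagen genes, against 27.2% of all probes. No animal is shared between the 2 age comparisons, but all 17 arrays gave 1 estimate of the spread.

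**Figure D1:**
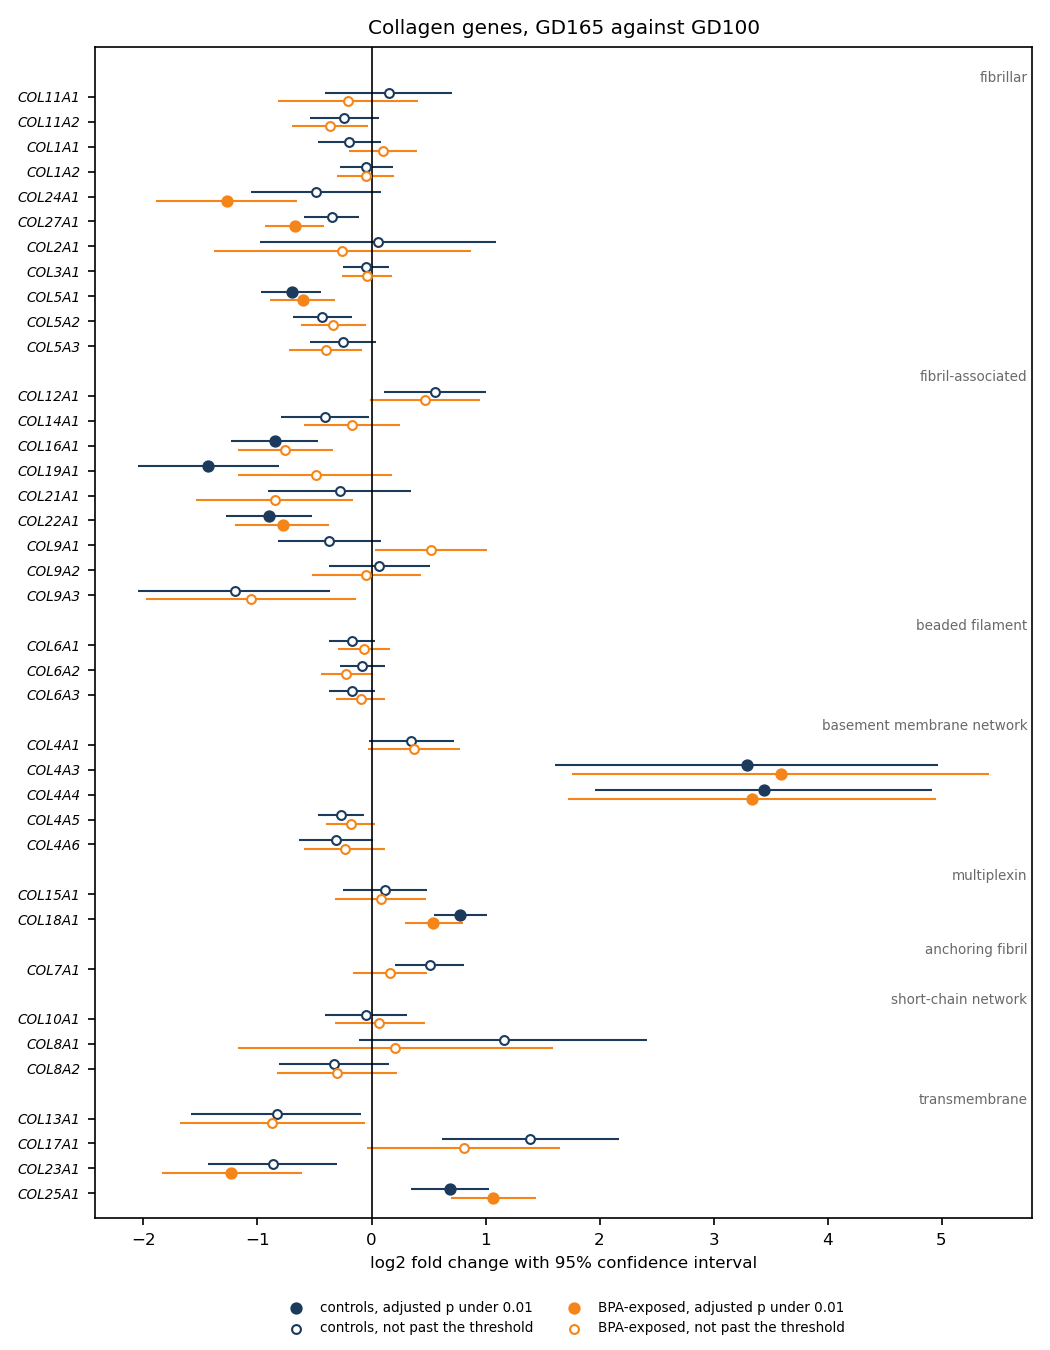
Log2 fold change (x axis) of each of the 38 collagen genes (y axis, grouped by class) between GD165 and GD100, in controls (blue, n = 4 and 5) and in BPA-exposed fetuses (orange, n = 3 and 5). Bars are 95% confidence intervals and filled points passed an adjusted p of 0.01. COL4A4 lies at the right, at 3.44 and 3.34, with COL4A3 beside it, whose points are fitted against GD100 values not well above background and give no size, and the estimates of COL1A2 and COL3A1 lie at -0.05 to -0.04.

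Among the type IV chains, COL4A4 had the largest increase among the collagen genes detected on all arrays. In GD100 controls its level was 7.04, 8.27, 7.58, 7.98 and 6.74, and in GD165 controls it was 12.78, 10.40, 9.46 and 11.21. The lowest GD165 control was above the highest GD100 control. The increase was 10.9-fold (log2 3.44 ± 0.69 SE, limma adjusted p = 0.00239). In BPA-exposed fetuses the level was 9.34, 7.92, 7.71, 7.68 and 7.51 at GD100 and 9.42, 12.64 and 12.03 at GD165, an increase of 10.1-fold (log2 3.34 ± 0.75 SE, limma adjusted p = 0.00591). Those groups also did not overlap, although the highest GD100 BPA fetus and the lowest GD165 BPA fetus differed little. Leaving out any 1 of GD100 BPA 2, 3, 4 and 5 and GD165 BPA 4 and 5 lost the call in BPA-exposed fetuses, with an adjusted p of up to 0.0418 at a log2 fold change of 2.70 (without GD165 BPA 4), while without GD165 BPA 3 it was 4.31. In controls no animal left out lost the call, and the log2 fold change ran from 2.84 (without GD165 control 1) to 3.94 (without GD165 control 5).

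COL4A3 was read by a dim probe. It was well above background in 0 of the 10 GD100 fetuses, in 3 of 4 GD165 controls and in 2 of 3 GD165 BPA fetuses. In controls its level was 1.49, 1.15, 1.89, 1.37 and 2.78 at GD100 and 7.32, 3.60, 4.21 and 4.98 at GD165. In BPA-exposed fetuses it was 3.78, 1.46, 1.82, 1.57 and 1.25 at GD100 and 3.56, 6.95 and 6.19 at GD165. The control groups did not overlap, and the BPA-exposed groups did, through the highest GD100 and the lowest GD165 fetus. Because the GD100 values were not well above background, the increase was taken as at least 2.53-fold in controls (limma adjusted p = 0.0071) and at least 3.64-fold in BPA-exposed fetuses (limma adjusted p = 0.00812). These bounds set each array's own detection limit in place of the GD100 level. With normexp background correction the log2 fold changes were 0.68 and 0.77 and neither passed the threshold (adjusted p = 0.0895 and 0.0694). Leaving out any 1 of GD100 controls 1, 2, 3 and 4 and GD165 controls 1 and 6 lost the COL4A3 call in controls (adjusted p = 0.0143 to 0.0244), and any 1 of GD100 BPA 2, 3, 4 and 5 and GD165 BPA 4 and 5 lost it in BPA-exposed fetuses (adjusted p = 0.018 to 0.0548).

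The 3 fetuses with the highest COL4A4 (GD165 control 1, GD165 BPA 4 and GD165 BPA 5, at 12.78, 12.64 and 12.03) were also the 3 with the highest COL4A3 (7.32, 6.95 and 6.19). The spread of COL4A4 between GD165 controls was wide, with an SD of 1.41 against 0.63 in GD100 controls. COL4A1, which encodes the alpha 1 chain of the common network, was 0.35 higher in controls (log2, 95% CI -0.02 to 0.72, adjusted p = 0.174). COL4A5 and COL4A6, the chains that partner in smooth muscle basement membrane, had negative estimates of -0.27 (95% CI -0.47 to -0.07, adjusted p = 0.0486) and -0.31 (95% CI -0.64 to 0.01, adjusted p = 0.161). Of the 5 type IV genes measured, 2 changed at the threshold, both upward, in each age comparison.

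**Figure D2:**
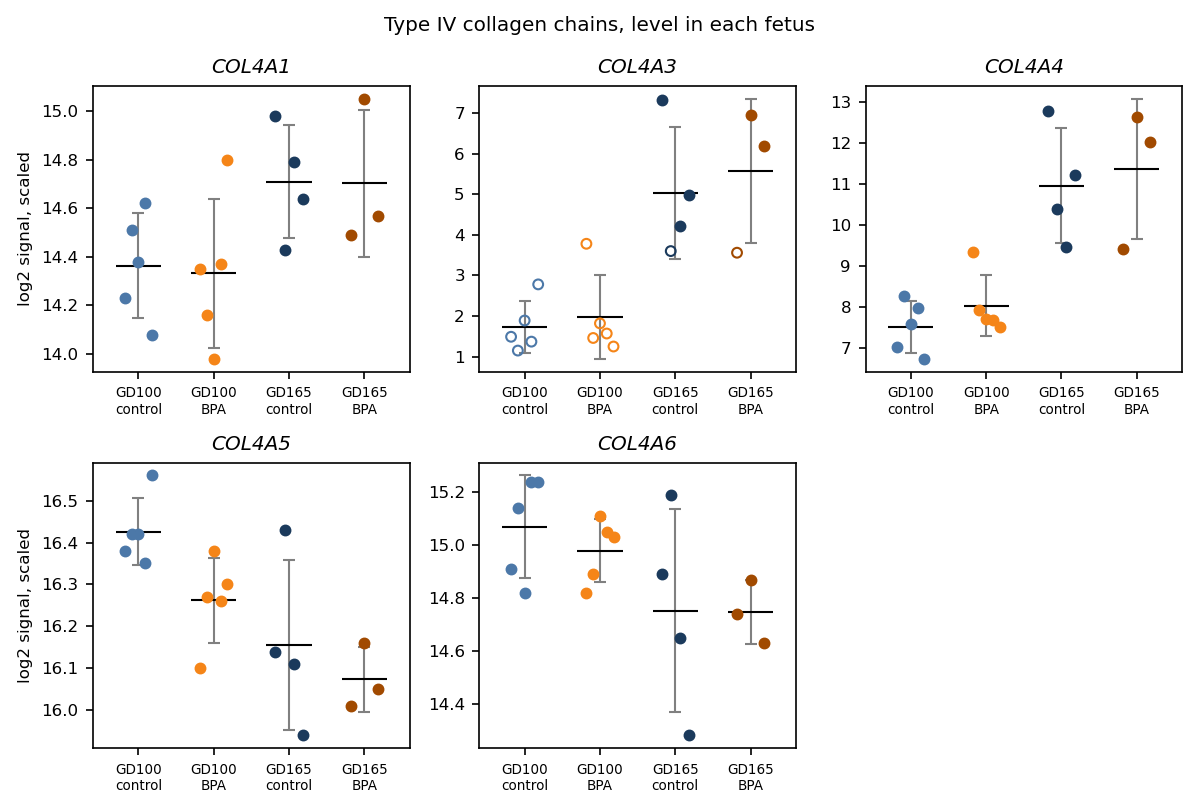
Scaled log2 signal (y axis) of the 5 type IV collagen genes in each fetus, by group (x axis). Filled points were well above background and open points were not, black lines are group means and grey bars SDs. COL4A3 and COL4A4 have higher group means and a wider spread at GD165 than at GD100. Among BPA-exposed fetuses the highest GD100 and lowest GD165 values are close for COL4A4 (9.34 and 9.42) and reversed for COL4A3 (3.78 and 3.56). COL4A1, COL4A5 and COL4A6 span about 1 log2 unit or less.

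The fibrillar class held 11 genes. The major fibril chains were bright and differed little with age. COL1A1 and COL1A2, the chains of type I collagen, had log2 fold changes of -0.20 (95% CI -0.47 to 0.08) and -0.05 (95% CI -0.28 to 0.19) in controls. COL3A1, the chain of type III collagen abundant in distensible tissue, had -0.05 (95% CI -0.25 to 0.15). Groups overlapped for all 3 genes. The 3 genes had estimates of 0.10, -0.05 and -0.04 in BPA-exposed fetuses.

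Type V collagen seeds type I fibrils and limits their width. Of its 3 chains, COL5A1 passed the threshold. COL5A1 was 15.37, 14.97, 15.27, 15.28 and 14.93 in GD100 controls and 14.41, 14.55, 14.53 and 14.35 in GD165 controls. Every GD165 control was below every GD100 control. The decrease was 1.63-fold (log2 -0.70 ± 0.12 SE, limma adjusted p = 0.000858) in controls and 1.52-fold (log2 -0.60 ± 0.13 SE, limma adjusted p = 0.00529) in BPA-exposed fetuses, where the call was lost in 6 of 8 fits that left out 1 fetus (adjusted p of up to 0.0308, without GD165 BPA 3). Its partner chain COL5A2 was 0.43 lower on the log2 scale in controls without passing the threshold (adjusted p = 0.0197), and COL5A3 0.25 lower (adjusted p = 0.22).

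COL24A1 and COL27A1, minor fibrillar chains best known from bone and cartilage, passed the threshold in BPA-exposed fetuses. COL24A1 was 9.39, 9.5, 9.29, 9.22 and 9.25 at GD100 and 8.29, 8.17 and 7.73 at GD165, a decrease of 2.41-fold (log2 -1.27 ± 0.29 SE, limma adjusted p = 0.00628). COL27A1 was 11.19, 11.10, 11.06, 10.94 and 10.82 at GD100 and 10.42, 10.54 and 10.09 at GD165, a decrease of 1.6-fold (log2 -0.67 ± 0.12 SE, limma adjusted p = 0.0014). Neither pair of groups overlapped. The COL24A1 call was lost when any 1 of the 8 fetuses was left out (adjusted p = 0.0114 to 0.0358), and the COL27A1 call in none of these fits. In controls the estimates were -0.49 (adjusted p = 0.213) for COL24A1 and -0.35 (adjusted p = 0.0326) for COL27A1. The difference between the 2 age effects was -0.78 for COL24A1 and -0.32 for COL27A1, and neither passed the limma test (adjusted p = 0.65 and 0.655). Across the fibrillar class, 9 of 11 estimates in controls and 10 of 11 in BPA-exposed fetuses were below 0. Of all 20217 probes, 10002 in controls and 11184 in BPA-exposed fetuses had estimates below 0.

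Among the 9 fibril-associated genes, 3 fell in controls and none rose. COL16A1, a stromal and smooth muscle chain, was 16.90, 16.93, 17.24, 16.92 and 16.78 in GD100 controls and 16.04, 15.69, 16.29 and 16.40 in GD165 controls. The groups did not overlap and the decrease was 1.80-fold (log2 -0.85 ± 0.18 SE, limma adjusted p = 0.00318). Without GD165 control 1 or 3 the adjusted p was 0.0108 or 0.0115. In BPA-exposed fetuses COL16A1 had a similar estimate, -0.76, with an adjusted p of 0.0124.

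COL22A1, a chain of tissue junctions such as that of muscle with tendon, was 11.67, 11.77, 11.67, 12.20 and 11.95 in GD100 controls and 10.79, 11.40, 10.96 and 10.65 in GD165 controls. The decrease was 1.87-fold (log2 -0.90 ± 0.18 SE, limma adjusted p = 0.00205) with no overlap. In BPA-exposed fetuses it was 1.72-fold (limma adjusted p = 0.00994), a call that lay at the threshold and was lost in 7 of 8 fits that left out 1 fetus (adjusted p of up to 0.0485, without GD165 BPA 5), with median scaling (0.0128), quantile normalization (0.0106) and slide as a random block (0.0114). COL19A1, a rare basement membrane zone chain, was 7.06, 6.96, 6.02, 6.43 and 6.65 in GD100 controls and 5.29, 5.16, 5.21 and 5.11 in GD165 controls. All GD165 controls lay within a narrow range under the GD100 controls, and the decrease was 2.70-fold (log2 -1.43 ± 0.29 SE, limma adjusted p = 0.0026).

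COL19A1 was lower by 1.41-fold in BPA-exposed fetuses without passing the threshold (adjusted p = 0.285), and the GD100 BPA fetuses already had a lower mean than their controls, 5.86 against 6.62. The difference of the 2 age effects was 0.94 ± 0.43 SE (unadjusted p = 0.0444, limma adjusted p = 0.631) and so did not pass. COL9A3, a chain of type IX collagen that coats cartilage fibrils, had the largest decrease that did not pass, 2.31-fold in controls (adjusted p = 0.0394). COL12A1, COL14A1, COL21A1, COL9A1 and COL9A2 did not pass the threshold in either age comparison.

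The multiplexin COL18A1, whose chain is a heparan sulfate proteoglycan of basement membranes and the source of endostatin, rose in controls and in BPA-exposed fetuses. Its level was 10.93, 10.94, 10.82, 11.02 and 10.63 in GD100 controls and 11.96, 11.61, 11.47 and 11.55 in GD165 controls. No values overlapped, and the increase was 1.72-fold (log2 0.78 ± 0.11 SE, limma adjusted p = 0.000161), the smallest adjusted p of any collagen gene. In BPA-exposed fetuses it was 10.92, 10.81, 10.85, 10.71 and 10.83 at GD100 and 11.20, 11.37 and 11.53 at GD165, an increase of 1.46-fold (log2 0.54 ± 0.12 SE, limma adjusted p = 0.00497). That call was lost in 6 of 8 fits that left out 1 fetus (adjusted p of up to 0.03, without GD165 BPA 5). COL15A1, the other multiplexin, had a log2 fold change of 0.12 in controls (95% CI -0.25 to 0.49).

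Of the 4 transmembrane collagens, COL25A1, a neuronal and muscle chain involved in motor innervation, was 6.07, 6.23, 6.27, 6.06 and 6.02 in GD100 controls and 6.48, 6.97, 7.13 and 6.70 in GD165 controls. The increase was 1.61-fold (log2 0.69 ± 0.16 SE, limma adjusted p = 0.00547) in controls and 2.10-fold (log2 1.07 ± 0.17 SE, limma adjusted p = 0.000671) in BPA-exposed fetuses. Its dimmer probe, well above background in 1 of 4 GD165 and 0 of 5 GD100 controls, had the opposite sign, -0.56 in controls (adjusted p = 0.295) and -0.30 in BPA-exposed fetuses (adjusted p = 0.626), and with both probes averaged the gene did not pass (log2 0.07, adjusted p = 0.875, and 0.39, adjusted p = 0.261). The COL25A1 call thus rested on 1 of 2 probes, and in controls it was also lost in 6 of 9 fits that left out 1 fetus (adjusted p of up to 0.0188, without GD165 control 5).

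COL23A1 was 11.25, 11.79, 11.83, 11.69 and 11.02 in GD100 BPA fetuses and 10.57, 9.56 and 10.74 in GD165 BPA fetuses, a decrease of 2.34-fold without overlap (log2 -1.23 ± 0.29 SE, limma adjusted p = 0.0074). The call was lost in 6 of 8 fits that left out 1 fetus (adjusted p of up to 0.0516, without GD165 BPA 4) and with slide as a fixed (log2 -0.90, adjusted p = 0.136) or random block (adjusted p = 0.0123). Its estimate in controls was -0.86 (adjusted p = 0.0283). COL17A1, a hemidesmosome collagen of basal epithelium, was 2.63-fold higher at GD165 in controls just short of the threshold (limma adjusted p = 0.0116), while its other probe was past it (log2 1.43 ± 0.33 SE, limma adjusted p = 0.00599). COL17A1 was highest in GD165 control 6 (14.72), the fetus with the highest score of squamous and basal epithelium markers. COL13A1 had estimates of -0.83 and -0.87 and did not pass.

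The 3 genes of type VI collagen were bright and close to equal at both ages. Their log2 fold changes in controls were -0.17 (COL6A1), -0.08 (COL6A2) and -0.17 (COL6A3), all with 95% confidence intervals between -0.37 and 0.12. A second COL6A2 probe gave -0.33 (adjusted p = 0.0494). COL7A1, the anchoring fibril chain under stratified epithelium, had an estimate of 0.51 in controls (adjusted p = 0.015) with no overlap and 0.16 in BPA-exposed fetuses (adjusted p = 0.468). None of the short-chain genes COL8A1, COL8A2 and COL10A1 passed. COL8A1 had an estimate of 1.16 in controls with a 95% confidence interval of -0.11 to 2.42.

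**Figure D3:**
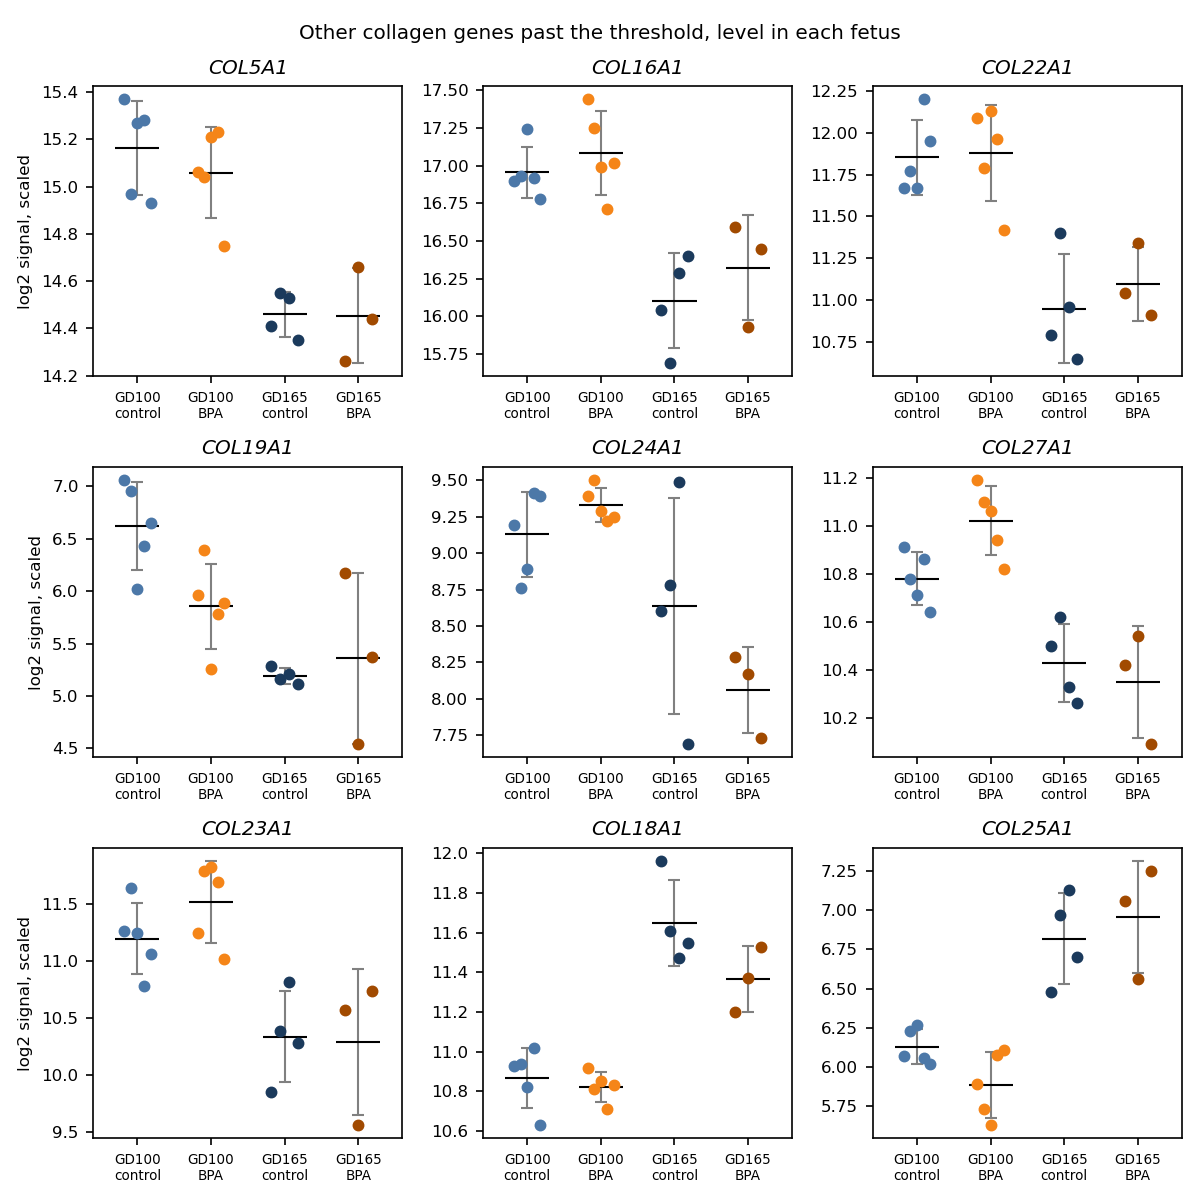
Scaled log2 signal (y axis) in each fetus by group (x axis) for the 9 collagen genes outside type IV that passed an adjusted p of 0.01 in either age comparison. Points are fetuses, black lines group means and grey bars SDs. Group means of COL5A1, COL16A1, COL22A1, COL19A1, COL24A1, COL27A1 and COL23A1 are lower at GD165, and those of COL18A1 and COL25A1 (brighter probe) higher. The ages overlap for COL23A1 and COL24A1 in controls and for COL19A1 in BPA-exposed fetuses.

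Genes that modify, cut, cross-link, bind or sit beside collagen were described from fixed lists. Of the 32 processing and assembly genes measured, 1 rose and 5 fell in controls, and 1 rose and 7 fell in BPA-exposed fetuses. Of the list this is 3.12% higher and 15.6% lower in controls, against 6.32% and 5.2% of all probes, and 3.12% higher and 21.9% lower in BPA-exposed fetuses, against 4.82% and 4.86%. The median log2 fold change of this list was -0.31 in controls and -0.32 in BPA-exposed fetuses. SERPINH1, the collagen chaperone HSP47, fell by 0.38 on the log2 scale in controls (15.45 ± 0.12 SD to 15.07 ± 0.15, limma adjusted p = 0.00685). FKBP10, a prolyl isomerase of the endoplasmic reticulum, fell in both comparisons (log2 -0.41, adjusted p = 0.00243, and -0.43, adjusted p = 0.00366). COLGALT2, a galactosyltransferase of hydroxylysine, also fell in both (log2 -0.86, adjusted p = 0.00684, and -1.14, adjusted p = 0.00238).

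The 2 tolloid-like proteases on the processing list went opposite ways. TLL1 rose 2.57-fold in controls (7.63 ± 0.14 SD to 8.99 ± 0.74, limma adjusted p = 0.00087) and 2.66-fold in BPA-exposed fetuses (limma adjusted p = 0.00164). TLL2 fell, from well above background in all 10 GD100 fetuses to 1 of 4 GD165 controls and 0 of 3 GD165 BPA fetuses. Its decrease in BPA-exposed fetuses was at least 2.45-fold (limma adjusted p = 0.00157), and its log2 estimate in controls was -2.09 (limma adjusted p = 0.000973). FKBP14 fell in controls (log2 -0.55), and PCOLCE, the enhancer of procollagen C-proteinase, fell in BPA-exposed fetuses (log2 -0.79 ± 0.13 SE, limma adjusted p = 0.000729), as did the cross-linking oxidases LOXL2 and LOXL3 and the lysyl hydroxylase PLOD1.

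None of the 10 collagen receptor genes passed in controls, with 3 at an unadjusted p under 0.05 by limma, against 33.1% of all probes. DDR2, a receptor tyrosine kinase for fibrillar collagen, fell in BPA-exposed fetuses (log2 -0.59 ± 0.13 SE, limma adjusted p = 0.00606). Of the 14 basement membrane partners, 3 rose and 2 fell in controls, or 21.4% and 14.3%, against 6.32% and 5.2% of all probes. Among those that rose were LAMA3 (log2 0.65, limma adjusted p = 0.00687) and LAMB3 (log2 0.79, limma adjusted p = 0.00945), which encode laminin chains of epithelial basement membrane. NID2, a nidogen that links laminin to type IV collagen, fell from 11.79 ± 0.08 SD to 10.79 ± 0.26 (limma adjusted p = 8.67e-05), and LAMA1, an early embryonic laminin chain, fell by 1.25 (limma adjusted p = 0.00607). In BPA-exposed fetuses LAMA3 and LAMA5 rose and NID2 fell, or 14.3% and 7.14% of the list, against 4.82% and 4.86% of all probes.

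**Figure D4:**
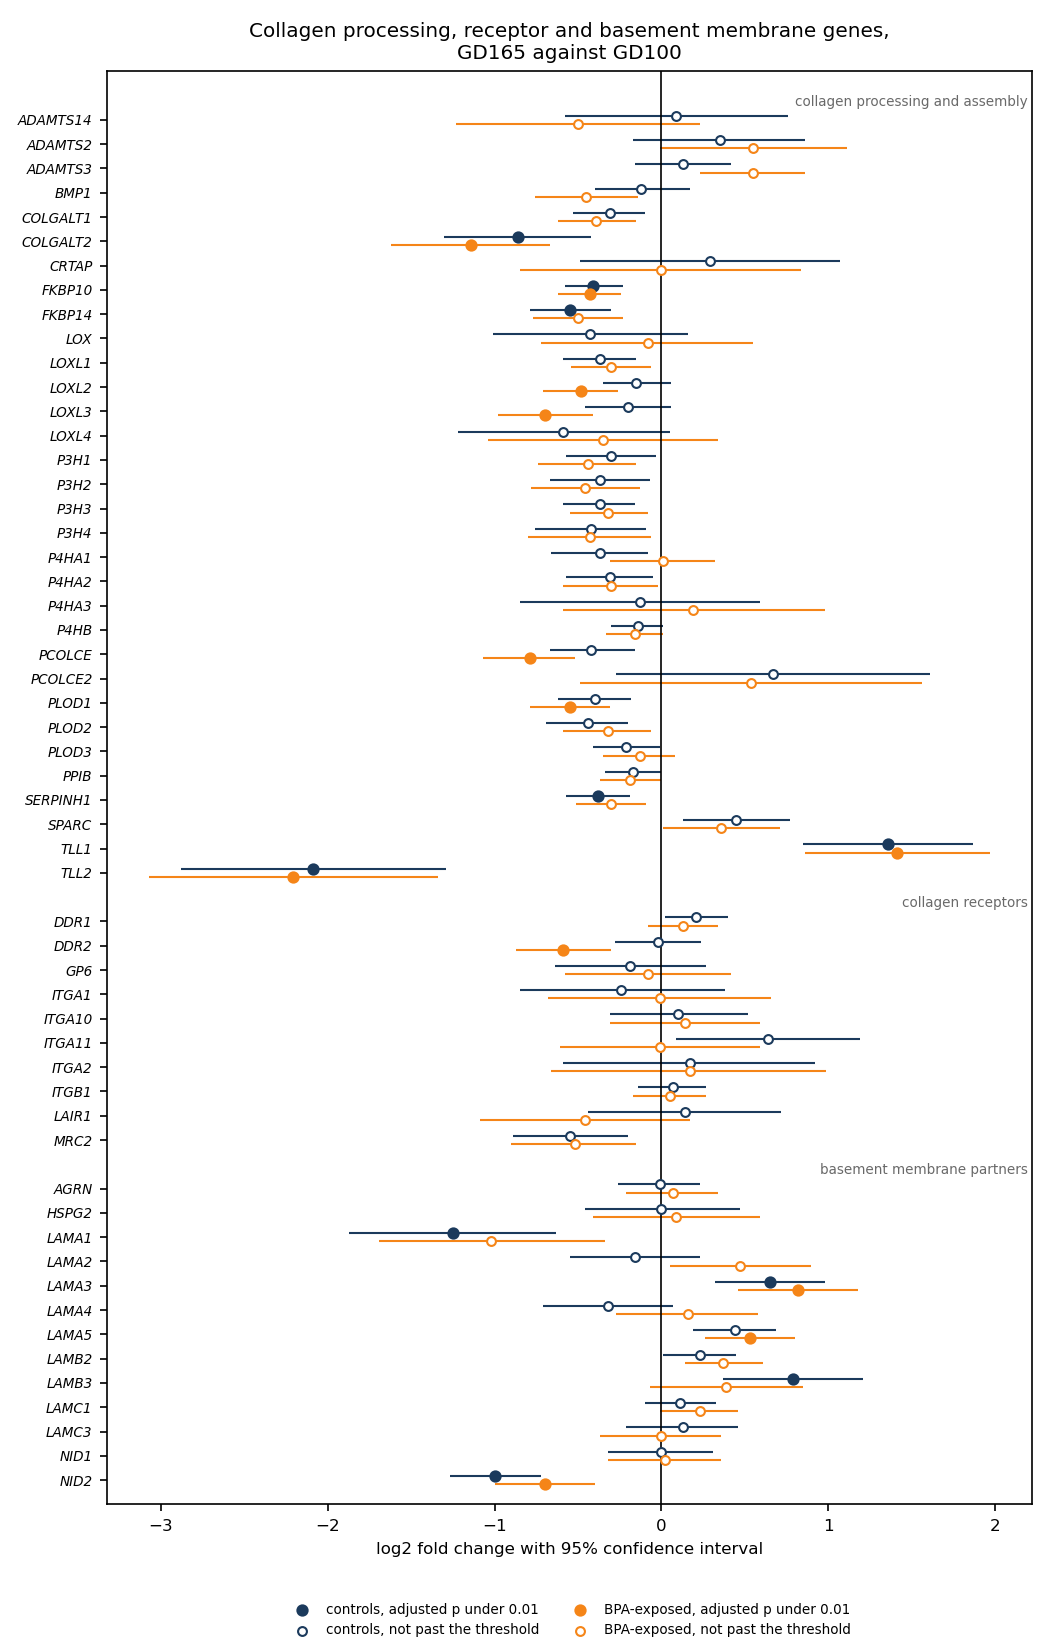
Log2 fold change (x axis) between GD165 and GD100 of the 32 processing, 10 receptor and 13 of the 14 basement membrane genes (y axis), in controls (blue) and BPA-exposed fetuses (orange), with 95% confidence intervals. Filled points passed an adjusted p of 0.01. TLL1 lies at 1.36 and 1.41. TLL2, at the left, was well above background on 1 of 4 and 0 of 3 GD165 arrays, so its points give no exact size.

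Markers of other cell types differed with age as well. The score of a list was its mean log2 level in a fetus relative to the mean over the 17 fetuses. The skeletal muscle score was -0.93 to -0.54 in GD100 controls and 0.16 to 2.83 in GD165 controls. Of its 24 genes, 5 were called higher in controls (20.8%, against 6.32% of all probes). In BPA-exposed fetuses the score was -0.96 to 0.24 at GD100 and -0.29 to 2.58 at GD165. There 2 of 24 genes were called higher (8.33%, against 4.82% of all probes). The smooth muscle score in controls lay between -0.46 and 0.12 at GD100 and between 0.20 and 0.56 at GD165. Of its genes, 4 of 14 (28.6%) were called higher in controls and 2 of 14 (14.3%) in BPA-exposed fetuses. The endothelium score in controls lay between -0.46 and -0.05 at GD100 and between -0.05 and 0.58 at GD165. Its genes called higher were 2 of 14 (14.3%) in controls and 2 of 14 in BPA-exposed fetuses.

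The squamous and basal epithelium score was -0.32 to 0.07 in GD100 controls and -0.57, -0.14, 0.62 and 2.83 in GD165 controls, the highest in GD165 control 6. None of its 11 genes passed the threshold in controls, with 5 at an unadjusted p under 0.05 by limma, where 33.1% of all probes were. Calls in the other lists in controls were 1 higher and 2 lower of 10 for stromal fibroblast, 1 higher and 1 lower of 9 for cartilage, 0 of 8 for bone (2 at an unadjusted p under 0.05 by limma), 2 higher and 1 lower of 10 for Schwann cell and 2 higher and 2 lower of 8 for Müllerian tract genes. Of all probes, 6.32% were called higher and 5.2% lower in controls. In BPA-exposed fetuses the calls were 1 higher and 1 lower for stromal fibroblast, 0 higher and 3 lower for cartilage and 0 for bone. Schwann cell had 0 higher and 1 lower there, Müllerian tract genes 2 higher and 1 lower, and squamous and basal epithelium 0. In that comparison 4.82% of all probes were called higher and 4.86% lower. The part of these cell types in the collagen changes was not tested. Leaving out the 3 fetuses with a skeletal muscle or squamous score above 1 (GD165 controls 5 and 6 and GD165 BPA 5), an alternative chosen after the data were seen, gave 3 collagen genes higher and 1 lower in controls. COL12A1, a fibril-associated chain, was a new call (log2 0.89, adjusted p = 0.00611). COL4A4 (log2 4.07, adjusted p = 0.00776), COL18A1 (0.92, 0.000579) and COL16A1 (-1.09, 0.00584; values are log2 fold change and adjusted p) still passed, and COL5A1 (-0.69, 0.0172), COL22A1 (-0.76, 0.0418), COL19A1 (-1.40, 0.0397), COL25A1 (0.59, 0.046) and COL4A3 (adjusted p = 0.0351) no longer did. In BPA-exposed fetuses COL25A1, COL24A1, COL23A1 and COL27A1 still passed and COL4A4 (3.00, 0.0292), COL4A3 (adjusted p = 0.049), COL18A1 (0.46, 0.0239), COL5A1 (-0.60, 0.0283) and COL22A1 (-0.69, 0.0512) did not. The 3 fetuses with the highest COL4A4 had skeletal muscle scores of 0.81 (GD165 control 1), -0.29 (GD165 BPA 4) and 2.58 (GD165 BPA 5). A link between this score and COL4A4 was not tested.

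The arrays lay on 6 slides. Within the 2 slides that held 1 control of each age, the difference between GD165 and GD100 was 2.82 and 6.04 for COL4A4, 0.80 and 1.33 for COL18A1, -0.72 and -0.53 for COL5A1 and -1.55 and -0.74 for COL16A1, with a direction that the separate groups already fixed. Within the 1 slide that held a BPA-exposed fetus of each age, COL4A4 was 4.53 higher. With slide as a random block, 5 collagen genes were higher and 4 lower in controls. With slide as a fixed block 1 was higher and 1 lower in controls, and COL4A4 had a log2 fold change of 4.05 (limma adjusted p = 0.0151). The share of all probes called under these fits is not given here, so the counts do not show a loss particular to collagen genes. The animals on each slide are few, and 1 slide held a single array.

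The second question was whether BPA exposure changed collagen expression at either age. These comparisons use the same 17 fetuses as the age comparisons. No collagen gene passed the threshold at GD100 or at GD165, where 0% of all probes passed in either comparison. At an unadjusted p under 0.05 by limma there were 2 collagen genes at GD165, against 8.61% of all probes, and 2 at GD100, against 3.79% of all probes. The median log2 fold change of the 38 genes was -0.01 at GD165 and 0.02 at GD100, and no collagen gene had groups that did not overlap, against 7.31% of all probes at GD165 and 0.782% at GD100.

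At GD165 the 2 genes were COL9A1 and COL18A1. COL9A1 was 12.28, 11.55, 11.49 and 12.39 in controls and 12.50, 12.36 and 12.98 in BPA-exposed fetuses, a log2 difference of 0.69 (95% CI 0.18 to 1.20, unadjusted p = 0.011, limma adjusted p = 0.474). COL18A1 was 0.28 lower with BPA (95% CI -0.55 to -0.02, limma adjusted p = 0.557). The groups overlapped for both genes. Within the 1 slide that held both groups at GD165, the difference was 0.15 for COL9A1 and -0.68 for COL18A1. The largest estimates at GD165 otherwise were 0.79 for COL9A3 and -0.57 for COL17A1 and COL24A1, none past the threshold.

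At GD100 the 2 genes were COL19A1 and COL27A1. COL19A1 was 5.96, 6.39, 5.26, 5.78 and 5.89 in BPA-exposed fetuses, a log2 difference of -0.77 from controls (95% CI -1.36 to -0.18, unadjusted p = 0.0129, limma adjusted p = 1). Within the 3 slides that held both groups at GD100 it was -1.48, -1.08 and -0.06. COL27A1 was 0.24 higher (95% CI 0.02 to 0.47), and 0.18, 0.05 and 0.48 higher within those slides. The intervals of the major chains were narrow at GD100: -0.40 to 0.11 for COL1A1, -0.26 to 0.18 for COL1A2 and -0.22 to 0.16 for COL3A1. At GD165 they were -0.16 to 0.47, -0.31 to 0.22 and -0.25 to 0.20. For COL4A3 and COL4A4 the intervals at GD165 were wide, -1.37 to 2.46 and -1.28 to 2.09, so a change of 2-fold in either direction was not excluded.

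The BPA effect did not differ detectably between the ages. In the limma test of that difference 0% of all probes and no collagen gene passed, and 2 collagen genes, COL9A1 (0.89 ± 0.31 SE, limma adjusted p = 0.529) and COL19A1 (0.94 ± 0.43 SE, limma adjusted p = 0.631), had an unadjusted p under 0.05, against 7.83% of all probes. Of the 56 processing, receptor and basement membrane genes, none passed in either BPA comparison, where 0% of all probes did. At an unadjusted p under 0.05 by limma there were 3 of them at GD165, against 8.61% of all probes. At GD100 there were 3, against 3.79% of all probes.

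**Figure D5:**
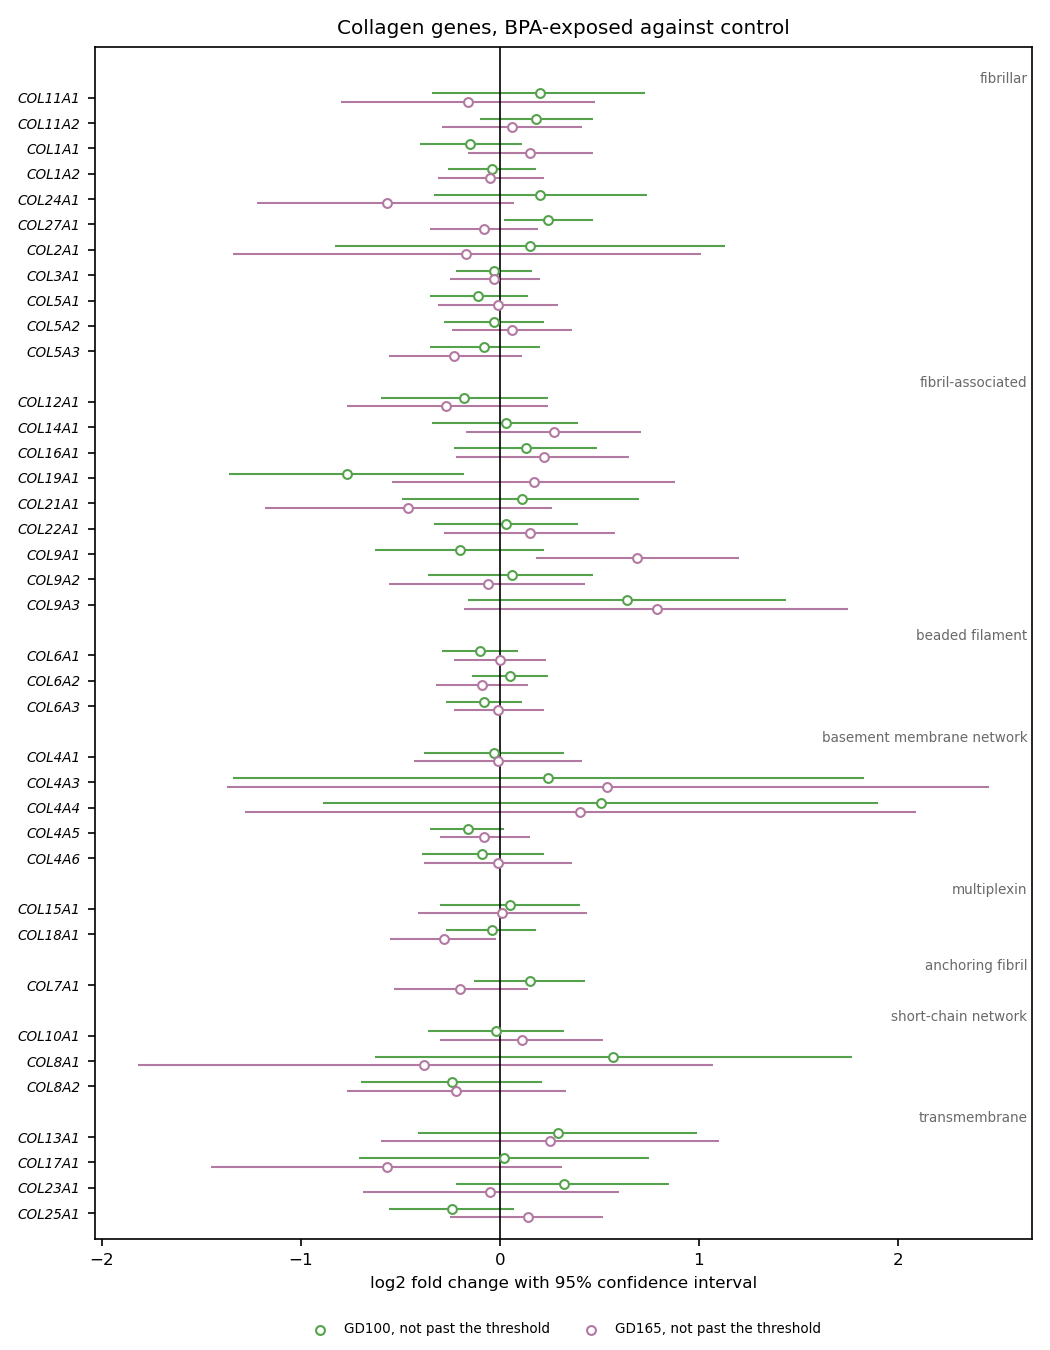
Log2 fold change (x axis) of each of the 38 collagen genes (y axis, grouped by class) between BPA-exposed and control fetuses at GD100 (green, n = 5 and 5) and GD165 (purple, n = 3 and 4), with 95% confidence intervals. All points are open because none passed an adjusted p of 0.01, and the estimates run from -0.77 for COL19A1 at GD100 to 0.79 for COL9A3 at GD165.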

How the data were processed

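Per the labels, total RNA of 17 fetal uteri was labelled with Cy3 and each array was read with Agilent Feature Extraction 9.5. The deposited files hold, for each spot, the processed signal, an intensity on a linear scale that the scanning software had already background-corrected, with a small positive value in place of signals not above background, with other columns for detection, saturation and outlier calls. Coordinates in the files were not used. The authors' table of processed values was set against the scanner files, and all 711467 values were identical, so the scanner files were used. Which genes neighbor each other was taken from RefSeq's macaque gene table.

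Control spots and spots called outliers were left out, spots of a probe were averaged, and log2 of the deposited intensity was scaled to each array's 75th percentile. Differences were tested in R 4.3.3 with limma 3.58.1 (lmFit and eBayes) over 4 groups, all 17 arrays and 20217 probes, with Benjamini-Hochberg adjustment over all probes and a threshold of 0.01. The test was checked on simulated data. Intervals are 95% on 13 residual degrees of freedom. For a group in which no array detected the probe, a fold was given as a bound against each array's detection limit. Each array is 1 fetus, so p-values measure the spread between fetuses, and the number of arrays limits the precision. Members were named if past the threshold, among the 3 largest rises or falls in a comparison, or major chains fixed by name. From the processing, receptor and basement membrane lists, genes past the threshold were named, with at most 4 rises and 4 falls per list. SERPINH1, FKBP10, LOXL2 and PLOD1 exceed that limit and were added after their values were seen. Other members appear within their class, outside this rule. A gene of the basement membrane list is counted but not reported here by name. Lists of 9 cell types were also scored. The members and gene lists were chosen with earlier results of these data known. Alternatives were other background corrections, scalings, filters, weights, slide and replicate blocks, probe averaging, a threshold of 0.05 and leaving out each animal. Leaving out 3 arrays with a high muscle or squamous score was added after the data were seen.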

Additional observations from a re-analysis of the deposited data

Results flagged for a closer look

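In 84 sets of values, each 1 gene in 1 group of 4 or 5 fetuses, a fetus lay far from the rest in 3 cases, all in GD100 BPA replicate 1. Chance flags about 1 in 20 groups. COL4A3 was 3.78 in this fetus and 1.25 to 1.82 in the other 4, although it was not well above background in any of them. COL4A4 was 9.34, against 7.51 to 7.92. COL9A1, a type IX collagen chain, was 12.42, against 11.97 to 12.05. The skeletal muscle score of this fetus was 0.24, against -0.96 to -0.73 in the other 4 of its group. The part of that score in these values was not tested.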

How the results depend on the processing

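Among the 28 collagen genes followed through the alternatives, none that passed the threshold, in the report or under an alternative, changed sign. Estimates that did not pass could, as for COL1A2 in controls (-0.12 to 0.03 when 1 animal was left out), COL8A1 with age in BPA-exposed fetuses (-0.36 to 1.31) and COL4A4 with BPA at GD165 (-0.23 to 1.37). Here "collagen" means the 38 genes and "partners" the 56 processing, receptor and basement membrane genes, and counts are of genes higher or lower at GD165. Among the alternatives, the number of all probes called is given only for the threshold of 0.05. The other counts therefore do not show whether a change in calls was particular to these genes. For the age comparison in controls (collagen 4 higher and 4 lower, partners 4 higher and 7 lower), scaling to the median left 2 partners higher, no scaling 1, and quantile normalization 2 collagen genes higher. Slide as a fixed block left 1 collagen gene higher and 1 lower, 2 partners higher and 3 lower, and a collagen median of -0.06. Fitting only the compared groups left 2 collagen genes higher, 1 partner higher and 2 lower. At an adjusted p of 0.05, 15 collagen genes passed in either direction, as did 4279 of all 20217 probes. Of the collagen genes 9 were lower, and of the partners 14 were lower. Without the 3 arrays of high muscle or squamous score, chosen after seeing the data, 1 collagen gene was lower, 0 partners were higher by limma and the collagen median was -0.06.

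For the age comparison in BPA-exposed fetuses (collagen 4 higher and 5 lower, partners 3 higher and 9 lower), no scaling left 0 collagen genes and 2 partners lower by limma and a collagen median of 0.01. Without scaling the median log2 fold change of all probes was 0.134, against -0.047 with it. Of the calls, 76.2% were higher without scaling and 49.8% with it. Slide as a fixed block left 1 collagen gene higher and 1 lower and 1 partner higher and 1 lower, and as a random block 3 collagen genes lower. Fitting only the compared groups left 1 collagen gene higher, 1 lower and 3 partners lower. At an adjusted p of 0.05, 6 partners were higher and 17 lower, where 4255 of all 20217 probes passed in either direction. Without the arrays of high score, 1 collagen gene was higher and 3 lower. The BPA comparisons kept 0 calls throughout, and without scaling the collagen median was 0.15 for BPA at GD165 and 0.20 for the difference between ages. The cause of these changes was not tested.

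The main fit did not treat same-numbered fetuses as pairs. Such fetuses correlated at -0.17 to 0.12, with too few pairs in each comparison to settle whether the replicate numbers carry a pairing. With the replicate block, 1 collagen gene was higher and 1 lower, and 1 partner higher and 2 lower, in controls, 3 collagen genes were lower and 1 partner higher in BPA-exposed fetuses, and the collagen median of the difference between ages was -0.08.

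Leaving out 1 animal gave 2 to 4 collagen genes higher and 3 to 4 lower in controls, lowest without GD100 control 1, GD100 control 4 or GD165 control 6 for the higher genes, 1 to 3 partners higher (1 without GD165 control 6), 4 to 6 partners lower (4 without GD165 control 1 or 6) and collagen medians of -0.22 to -0.12. COL4A3 and COL25A1 each lost the call in 6 of these 9 fits and COL16A1 in 2 (without GD165 control 1 or 3), and COL4A4, COL18A1, COL5A1, COL19A1 and COL22A1 in 0. In BPA-exposed fetuses it gave 1 to 4 collagen genes higher (1 without any of GD100 BPA 2, 3, 4 and 5 and GD165 BPA 4 and 5), 1 to 4 lower (1 without GD100 BPA 1, 2 or 3), 1 to 3 partners higher, 2 to 9 lower (2 without GD165 BPA 4) and collagen medians of -0.21 to -0.11. COL24A1 lost the call in 8 of 8 fits, COL22A1 in 7 and COL4A3, COL4A4, COL5A1, COL18A1 and COL23A1 in 6. The median of the difference between ages ran from -0.09 to 0.05. Dim signal limits COL4A3, COL8A1 and COL10A1, whose values near background have little order.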
